A study of Homo sapiens with 16 samples.

Results

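The genes described here are 10 targets of the transcription factor p53 that act in metabolism and in mitochondria: FDXR, TIGAR, SESN1, SCO2, GLS2, PANK1, SPATA18, TP53I3, CPT1C and GPX1. They were taken by symbol from a list of p53 target genes, and the symbols were matched to Ensembl identifiers. All 10 were found among the 60605 identifiers of the count tables, and all 10 had enough counts to be tested in both batches. The rule names symbols and sets no threshold on a measured value, but the genes were chosen with earlier results of these samples known. The assay was PRO-seq, in which nuclei extend nascent RNA with labelled nucleotides and the labelled ends are sequenced, so that a count reflects RNA polymerase engaged on the gene and not the amount of finished mRNA.

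All samples were LNCaP cells, a prostate cancer line that grows with androgen. Batch 2 held 4 groups. In its mock groups, called vehicle and enzalutamide below, cells were kept for 90 min in the DMSO vehicle or in 10 µM enzalutamide. In the other groups, cells were given vehicle or 10 µM enzalutamide for 30 min and then 6 Gy of ionizing radiation (IR). These cells were collected 60 min after IR. Batch 1 held mock cells and cells given 6 Gy IR, for which the sample labels name no vehicle and no time of collection. Each of the 6 groups had 2 replicate numbers, 1 and 2 in batch 1 and 3 and 4 in batch 2. Every replicate number of batch 1 had a library t1 and a library t2, which the labels do not explain and whose counts were summed here unless said otherwise. Enzalutamide is a prostate cancer drug that blocks androgen signalling. The labels do not say that replicates came from separate cultures, so p-values measure the spread between these samples, which may be technical, and all samples came from a single cell line.

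The protein p53 is stabilized after DNA breaks, binds a DNA element made of paired decamers, and raises the transcription of genes that stop the cell cycle, repair DNA or kill the cell. It also has targets that shift metabolism. TIGAR lowers the fructose bisphosphate signal that drives glycolysis, SCO2 and FDXR serve the respiratory chain and the iron-sulfur and steroid enzymes of mitochondria, and GLS2, PANK1 and CPT1C act on glutamine, coenzyme A and fatty acyl groups. GPX1, TP53I3 and the sestrin SESN1 bear on reactive oxygen, and SPATA18 on the clearance of damaged mitochondrial proteins.

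Promoter sequences are shown first, because p53 acts through its element and the 10 genes were listed as its targets. Windows from 250 bases before to 50 bases after a start site were taken from RefSeq on GRCh38.p14, which gave 15 windows for 9 of the 10 genes and none for SCO2. They were searched on both strands for the p53 full site consensus, paired decamers with no spacer, with the C and G of each cnng core kept and at most 3 mismatches at the other positions, the inner bases of the cores included. A match lay in the windows of 5 of the 9 genes (55.6%), against 1.37% of 27305 genes with a window. By window this was 5 of 15 (33.3%), against 1.12% of 35116. A single decamer of the consensus with no mismatch lay in the windows of 4 of the 9 genes (44.4%), against 8.06% of all genes. These were FDXR, SESN1, PANK1 and GPX1, and in each the decamer is part of the full match. The 10 genes were picked as p53 targets, so these shares are descriptions and not a test. The 5 best matches follow, each read on the minus strand, which is the strand of its gene, with the cores in capitals.
FDXR (chr17:74872996-74873015): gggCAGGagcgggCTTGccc
PANK1 (chr10:89645256-89645275): gggCAGGactgggCATGctc
GLS2 (chr12:56488113-56488132): aggCTTGctggggCATGcgc
GPX1 (chr3:49358521-49358540): gggCCAGaccagaCATGcct
SESN1 (chr6:109009018-109009037): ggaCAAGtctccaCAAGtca
GLS2, PANK1 and GPX1 had 2 mismatches to the consensus, and FDXR and SESN1 had 3. The first base of the match lay 21 bases before the start site in FDXR, 33 before it in PANK1, 187 before it in GPX1 and 29 after it in GLS2. In SESN1 it lay 49 bases before an internal start site, at position 109008988. No match lay in the windows of TIGAR, SPATA18, TP53I3 or CPT1C, which says only that these letters are not in those windows. Whether a match bears on the response to IR was not tested. The 250 bases before the first FDXR start site are shown with the match in capitals.
FDXR upstream (chr17:74872995-74873244, minus strand): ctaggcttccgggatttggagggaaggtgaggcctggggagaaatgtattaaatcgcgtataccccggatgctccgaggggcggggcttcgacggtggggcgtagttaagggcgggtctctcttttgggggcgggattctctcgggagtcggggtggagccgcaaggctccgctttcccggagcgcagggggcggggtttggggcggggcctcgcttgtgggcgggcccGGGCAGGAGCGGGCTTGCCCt

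Total counts were between 3438642 and 9363458 per library in batch 1, between 8022989 and 16851473 per summed replicate, and between 10494563 and 19905824 per library in batch 2. The labels were checked on known targets. CDKN1A, the cell cycle inhibitor downstream of p53, rose by a log2 fold change of 3.02 after IR in vehicle and 3.65 in batch 1, and TMPRSS2, a gene induced by androgen, was lower with enzalutamide averaged over IR (-0.58, SE 0.0622, edgeR adjusted p 0.00123). KLK3, another such gene, was at -0.66 and did not pass in the main fit (edgeR adjusted p 0.69), but did with the replicate number as a block (adjusted p 0.00204). Of a list of luminal prostate genes, FOLH1 was between 951 and 1390 CPM, TMPRSS2 between 270 and 488 CPM, HOXB13 between 126 and 184 CPM, KLK2 between 65.9 and 250 CPM, KRT8 between 55.3 and 121 CPM and KRT18 between 32 and 83.6 CPM over the 12 samples. KLK3 ran from 5.26 to 180 CPM and stood at 179 ± 2.01 CPM (SD, n = 2) in mock cells of batch 1 and 15.2 ± 2.55 CPM (SD, n = 2) in vehicle cells of batch 2, which were scaled separately. What this difference between the control cells has to do with differences between the batches in the 10 genes was not tested. Of other cell types, the leukocyte genes PTPRC, CD3E and LYZ summed to between 0.477 and 1.35 CPM. The basal prostate genes KRT5, KRT14 and TP63 summed to between 4.36 and 8.96 CPM. Fibroblast genes (COL1A1, COL1A2, PDGFRB) summed to between 11.2 and 15.4 CPM. Endothelial genes (PECAM1, VWF, CDH5) summed to between 15.4 and 36.5 CPM, with VWF alone between 11.5 and 31.2 CPM. Levels are given as CPM, counts relative to the library size scaled by TMM factors, so that a large change in a share of the cells and a smaller one in every cell cannot be told apart. Because the counted feature and its length are not given in the sources used here, levels are compared between samples of a gene and never between genes.

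After IR in vehicle-treated cells, 9 of the 10 genes rose and none fell (edgeR's quasi-likelihood test, adjusted p under 0.05 over 28651 genes). The exception was SCO2. Of all genes tested, 0.743% were higher, 213 in number (733 with the replicate number as a block). The median log2 fold change of the 10 genes was 0.94, against -0.01 over all genes tested and 1.22 over 35 other p53 targets, of which 24 rose. Both irradiated samples lay above both vehicle samples in 10 of 10 genes, as they did in 21.9% of all genes tested. Enzalutamide-treated cells gave 7 of 10 genes higher after IR, where 0.625% of all genes were higher (179, or 536 with the block), and again 10 of 10 without overlap, against 18.6% of all genes. In batch 1, 8 of 10 rose, where 2% of all 25889 genes tested were higher, and CPT1C fell, where 0.819% of all genes were lower. Of the 10, 8 had both irradiated replicates of batch 1 above both mock replicates (20.3% of all genes), CPT1C had both below, and SCO2 overlapped. Over both batches together, with batch as a term, 8 of 10 rose, where 2.39% of 29195 genes were higher, and SCO2 and CPT1C did not pass.

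**Figure D1:**
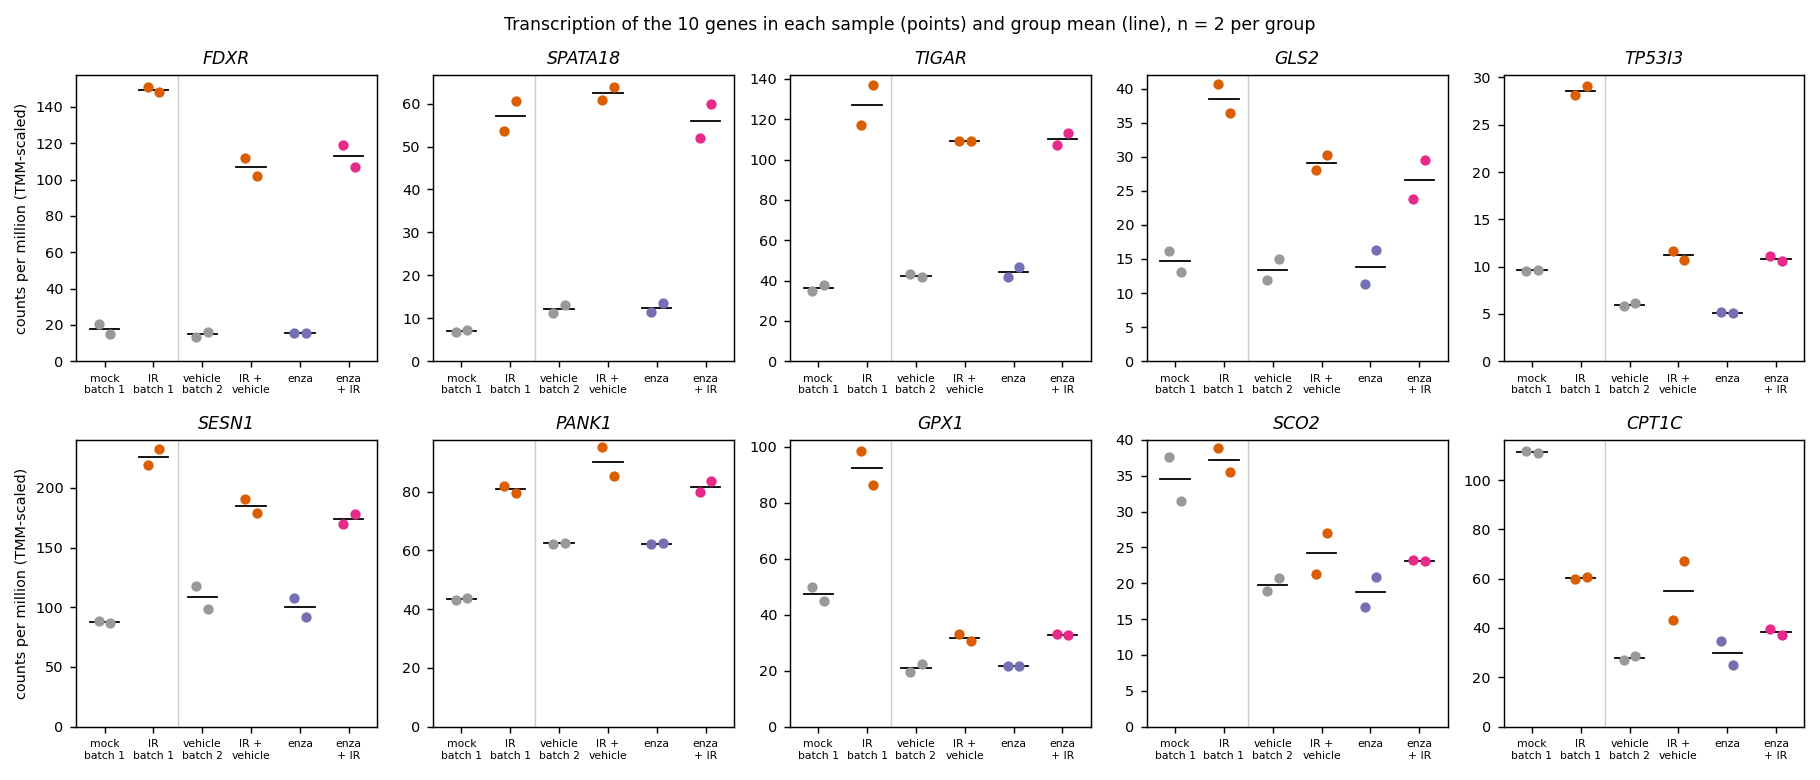
TMM-scaled CPM of each of the 10 genes by group, with each point 1 sample, the line the mean of 2 replicates and batch 1 left of the grey line. The irradiated samples of FDXR, SPATA18, TIGAR, GLS2, TP53I3, SESN1, PANK1 and GPX1 lie above the control samples without overlap in both batches. SCO2 shows little, and CPT1C is lower after IR in batch 1 and higher in batch 2.

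FDXR encodes ferredoxin reductase, the mitochondrial enzyme that passes electrons from NADPH to ferredoxins for iron-sulfur cluster and steroid synthesis (ENSG00000161513, chr17:74862497-74872994, minus strand). Its level was 13.6 and 16.2 CPM in vehicle and 112 and 102 CPM after IR, 15.3 and 15.4 CPM in enzalutamide and 119 and 107 CPM in enzalutamide with IR. In batch 1 it was 20.3 and 15.2 CPM in mock cells and 151 and 148 CPM after IR. The irradiated and control samples were far apart in every pairing, and the log2 fold change was the highest of the 10 genes in each of the 3 comparisons of summed samples, though its interval overlapped that of SPATA18 in vehicle cells and in batch 1, and in the t2 libraries alone SPATA18 had the higher value. The log2 fold change was 2.85 (SE 0.112, edgeR adjusted p 3.43e-08) in vehicle, a 7.19-fold rise, 2.88 (SE 0.114) under enzalutamide and 3.08 (SE 0.14) in batch 1. By p-value FDXR ranked 2 of 28651 genes in vehicle cells and 1 of 29195 genes over both batches (2.95, SE 0.0929, edgeR adjusted p 1.24e-13). The ferredoxins that it reduces did not pass the test in vehicle cells, with FDX1 at 0.01 and FDX2 at 0.07. Among 17 genes of iron-sulfur cluster assembly, 1 rose and none fell: ISCU, the scaffold on which the clusters are built, at 1.05 (SE 0.13, adjusted p 0.000649) and at 1.30 in batch 1.

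The gene GRIN2C lies 965 bases beyond the 3′ end of FDXR. GRIN2C, a glutamate receptor subunit, was at 12.6 ± 2.32 CPM (SD, n = 2) in vehicle and 20.1 ± 2.14 CPM (SD, n = 2) after IR (0.67, edgeR adjusted p 0.116), and it passed under enzalutamide (0.86, adjusted p 0.0393) and in batch 1 (1.63, adjusted p 0.000188). FADS6, on the other side, was at 0.03 in vehicle (adjusted p 0.987). Whether polymerase that ran past the end of FDXR was counted in GRIN2C was not tested.

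SPATA18, also known as MIEAP, encodes a protein that gathers oxidized mitochondrial proteins for breakdown (ENSG00000163071, chr4:52051304-52097299, plus strand). It was at 11.2 and 13 CPM in vehicle and 60.8 and 63.9 CPM after IR, at 11.4 and 13.6 CPM in enzalutamide and 51.9 and 60.0 CPM in enzalutamide with IR. In batch 1 it was at 6.72 and 7.32 CPM in mock cells and at 53.6 and 60.7 CPM after IR. No irradiated sample came near a control sample in either batch. SPATA18 thus changed by a log2 fold of 2.36 (SE 0.126, edgeR adjusted p 3e-07) in vehicle, a 5.13-fold rise, 2.18 (SE 0.128) under enzalutamide and 3.02 (SE 0.14) in batch 1, an 8.13-fold rise. Its lowest count was 54 reads, in a mock replicate. None of 16 genes of mitophagy and mitochondrial quality control passed in vehicle cells, with BNIP3L and PINK1 both at 0. BNIP3, a mitophagy receptor, passed in batch 1 (0.43, adjusted p 0.0398).

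TIGAR encodes a phosphatase of fructose bisphosphate that resembles the PFKFB enzymes and turns sugar toward the pentose phosphate pathway (ENSG00000078237, chr12:4321213-4360028, plus strand). It was at 43.1 and 41.7 CPM in vehicle, 109 and 109 CPM after IR, 41.9 and 46.7 CPM in enzalutamide and 107 and 113 CPM in enzalutamide with IR. Mock cells of batch 1 had 34.6 and 38.0 CPM and irradiated ones 117 and 137 CPM. The groups did not overlap in any of the 3 comparisons, and the samples after IR lay close together. This was a log2 fold change of 1.36 (SE 0.0886, edgeR adjusted p 1.93e-06) in vehicle, a 2.56-fold rise, 1.32 (SE 0.0894) under enzalutamide and 1.81 (SE 0.122) in batch 1. The 4 PFKFB genes, whose products make and break the same sugar signal, did not pass in vehicle cells, at -0.15, -0.13, 0.17 and 0.30 for PFKFB1 to PFKFB4. None of 19 glycolysis genes passed there (median 0.08), nor any of 7 pentose phosphate genes (median 0.13). An identifier with no symbol, ENSG00000285901, held between 103% and 109% of the TIGAR count in each of 12 samples, and the use of reads shared by both is not given in the sources used here.

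SESN1 encodes a sestrin, a stress protein that restrains the growth kinase complex mTORC1 through GATOR2 (ENSG00000080546, chr6:108984309-109094846, minus strand). It was at 118 and 98.7 CPM in vehicle and 191 and 179 CPM after IR, at 108 and 91.9 CPM in enzalutamide and 170 and 178 CPM in enzalutamide with IR. Batch 1 gave 88.1 and 86.4 CPM in mock cells and 219 and 233 CPM after IR. The rise was smaller than that of TIGAR in vehicle cells, with intervals that did not overlap (1.17 to 1.55 for TIGAR and 0.54 to 1.00 for SESN1). Its log2 fold change was 0.77 (SE 0.107, edgeR adjusted p 0.00165) in vehicle, 0.79 (SE 0.108) under enzalutamide and 1.37 (SE 0.121) in batch 1. Its relative SESN2 rose more, by 1.79 (SE 0.0946, adjusted p 3e-07) in vehicle and 1.95 in batch 1, while SESN3 was at -0.26 and did not pass. No gene of 20 in mTORC1 and GATOR control passed in vehicle cells (median 0.10). ARMC2 overlaps SESN1 on the opposite strand and passed in batch 1 (1.06, adjusted p 8.79e-05) but not in vehicle cells (0.22, adjusted p 0.539). CEP57L1, which starts 317 bases from SESN1 on the opposite strand, was at -0.16. Since the use of strand in counting is not given in the sources used here, the reads of SESN1 and ARMC2 cannot be told apart.

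GLS2 encodes the liver-type glutaminase, which turns glutamine into glutamate in mitochondria (ENSG00000135423, chr12:56470952-56488161, minus strand). It was at 11.9 and 15 CPM in vehicle, 28.0 and 30.2 CPM after IR, 11.4 and 16.3 CPM in enzalutamide and 23.8 and 29.5 CPM in enzalutamide with IR. Batch 1 gave 16.2 and 13.1 CPM against 40.6 and 36.4 CPM. The irradiated samples lay above the controls in each setting. IR gave GLS2 a log2 fold change of 1.10 (SE 0.174, edgeR adjusted p 0.00484) in vehicle, 0.98 (SE 0.179, adjusted p 0.017) under enzalutamide and 1.40 (SE 0.138, adjusted p 5.96e-05) in batch 1. Of 12 genes of glutamine and glutamate metabolism 1 rose in vehicle cells, GLUL, the glutamine synthetase gene (0.84, adjusted p 0.00228). SPRYD4, which overlaps GLS2 on the opposite strand, was at 0.47 (adjusted p 0.0747) in vehicle and 0.80 (adjusted p 0.000481) in batch 1, so part of either count could come from the other gene.

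TP53I3, also known as PIG3, encodes a quinone oxidoreductase that makes reactive oxygen (ENSG00000115129, chr2:24077433-24084834, minus strand). It was at 5.82 and 6.15 CPM in vehicle, 11.7 and 10.7 CPM after IR, 5.22 and 5.08 CPM in enzalutamide and 11.1 and 10.6 CPM in enzalutamide with IR. Batch 1 gave 9.58 and 9.61 CPM against 28.1 and 29.1 CPM. Replicates were close throughout, although the lowest count was only 55 reads. In log2 terms TP53I3 rose by 0.90 (SE 0.159, edgeR adjusted p 0.0114) in vehicle, 1.07 (SE 0.166, adjusted p 0.00511) under enzalutamide and 1.58 (SE 0.138, adjusted p 2.3e-05) in batch 1. Its structural relatives CRYZ and CRYZL1 did not pass in vehicle cells, with CRYZ at 0.15. FAM228B, which overlaps TP53I3 on the opposite strand, was at -0.01 in vehicle and 0.12 in batch 1.

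PANK1 encodes a pantothenate kinase, the first enzyme of coenzyme A synthesis (ENSG00000152782, chr10:89579495-89645242, minus strand). It was at 62.2 and 62.7 CPM in vehicle, 95.1 and 85.4 CPM after IR, 62.1 and 62.5 CPM in enzalutamide and 79.9 and 83.5 CPM in enzalutamide with IR. Batch 1 gave 43.2 and 43.8 CPM against 81.9 and 79.7 CPM. For PANK1 the log2 fold change was 0.53 (SE 0.0866, edgeR adjusted p 0.00625) in vehicle and 0.89 (SE 0.102, adjusted p 0.000197) in batch 1. Under enzalutamide it was 0.39 (SE 0.0876) and did not pass (adjusted p 0.0686), though it did with the replicate number as a block (adjusted p 0.00208). PANK2, PANK3 and PANK4 were at 0.21, 0.02 and 0.11 in vehicle cells, and none of 8 other genes of coenzyme A synthesis passed. The microRNA gene MIR107 lies within PANK1 but had too few reads to be tested. PANK1-AS1, on the opposite strand, passed in batch 1 (0.96, adjusted p 0.00326), and its reads cannot be told apart from those of PANK1 without strand.

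GPX1 encodes a glutathione peroxidase that removes hydrogen peroxide (ENSG00000233276, chr3:49357176-49358353, minus strand). It was at 19.6 and 22.2 CPM in vehicle, 33.2 and 30.4 CPM after IR, 21.5 and 21.8 CPM in enzalutamide and 32.9 and 32.8 CPM in enzalutamide with IR. Batch 1 gave 50 and 44.9 CPM against 98.5 and 86.3 CPM. GPX1 rose by a log2 fold change of 0.60 (SE 0.111, edgeR adjusted p 0.0159) in vehicle, 0.60 (SE 0.113, adjusted p 0.0198) under enzalutamide and 0.96 (SE 0.114, adjusted p 0.000276) in batch 1, where it came from the t1 libraries alone. None of 21 antioxidant enzyme genes passed in vehicle cells (median 0.12), and GPX4 was at 0.20. RHOA, which ends 792 bases from the GPX1 start, was at 0.12 in vehicle. In batch 1 RHOA was at -0.11 in the t1 libraries (edgeR adjusted p 0.664) and 0.63 in the t2 libraries (adjusted p 0.00038).

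SCO2 encodes a copper chaperone needed to assemble cytochrome c oxidase (ENSG00000284194, chr22:50523568-50526442). It was at 18.9 and 20.7 CPM in vehicle, 21.3 and 27.0 CPM after IR, 16.7 and 20.9 CPM in enzalutamide and 23.2 and 23.1 CPM in enzalutamide with IR. Batch 1 gave 37.6 and 31.5 CPM against 38.9 and 35.5 CPM, which overlap. No comparison of summed samples passed, at 0.28 (SE 0.145, 95% interval -0.03 to 0.60, edgeR adjusted p 0.495) in vehicle, 0.31 (SE 0.148, adjusted p 0.538) under enzalutamide and 0.11 (SE 0.121, interval -0.16 to 0.37, adjusted p 0.834) in batch 1. The upper ends of these intervals are under the lower ends of those of FDXR, SPATA18 and TIGAR. SCO1, its partner in copper delivery, was at 0.15 in vehicle, and none of 22 genes of cytochrome oxidase assembly passed (median 0.04). TYMP and NCAPH2 overlap SCO2 and were at 0.24 and 0.18 in vehicle, so reads of SCO2 may be shared with them.

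CPT1C encodes a carnitine palmitoyltransferase of the endoplasmic reticulum best known from brain (ENSG00000169169, chr19:49690662-49713731, plus strand). In batch 2 it was at 26.9 and 28.8 CPM in vehicle, 43.2 and 67.0 CPM after IR, 34.7 and 24.9 CPM in enzalutamide and 39.7 and 37.0 CPM in enzalutamide with IR. In batch 1 it was at 112 and 111 CPM in mock cells and 59.7 and 60.5 CPM after IR. The batches, which were scaled separately, went opposite ways. The log2 fold change was 0.98 (SE 0.183, edgeR adjusted p 0.0172) in vehicle, 0.34 (SE 0.187, adjusted p 0.596) under enzalutamide and -0.89 (SE 0.104, adjusted p 0.000228) in batch 1. CPT1A, CPT1B and CPT2 were at -0.02, 0.04 and 0.09 in vehicle, and none of 17 genes of fatty acid oxidation passed. ADM5 ends 87 bases before CPT1C on the same strand and was at 0.18 in vehicle (adjusted p 0.7) and 0.34 in batch 1 (adjusted p 0.534). The libraries of batch 1 differed for ADM5, with -0.56 in t1 (edgeR adjusted p 0.128) and 1.34 in t2 (adjusted p 0.000326).

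**Figure D2:**
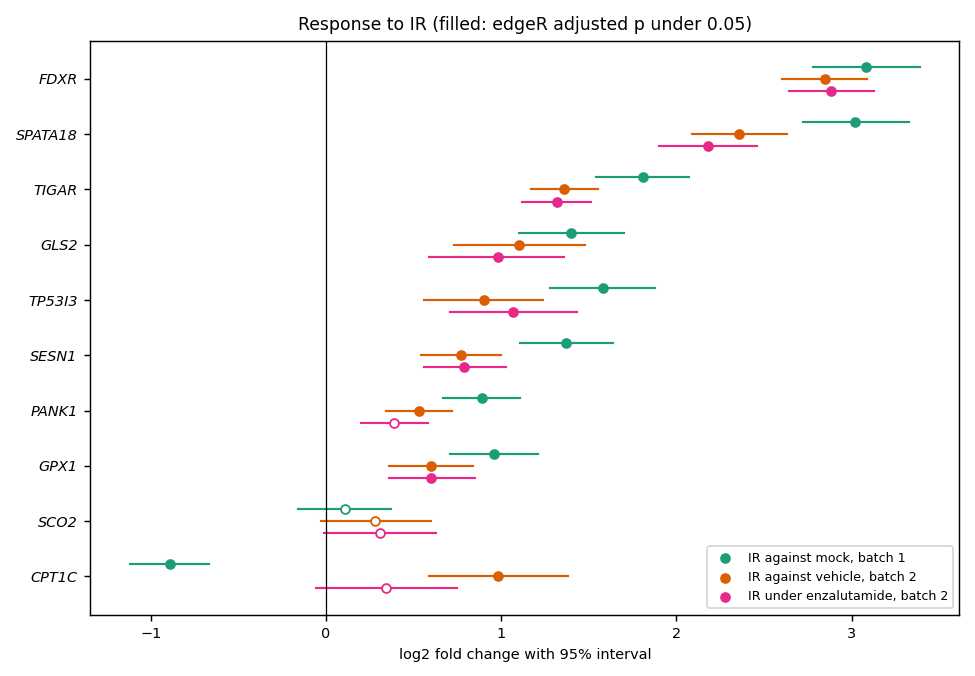
Log2 fold change after IR (x axis) of each gene in the 3 comparisons, with 95% intervals and filled points where the edgeR adjusted p is under 0.05. FDXR, SPATA18 and TIGAR lie furthest to the right, from 1.32 upward, SCO2 lies at 0.11 to 0.31 with open points, and CPT1C lies at -0.89 in batch 1 and 0.98 in vehicle cells.

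Ordered by response in the summed samples, FDXR came first and SPATA18 next in each of the 3 comparisons, with intervals that overlapped in vehicle cells and in batch 1 but not under enzalutamide. TIGAR came next, below SPATA18 without overlap each time. From TIGAR down, each gene's interval overlapped that of the next in vehicle cells and under enzalutamide. Differences between genes were not tested, so overlap does not show that neighbours are alike. In batch 1 the intervals parted again between PANK1 and SCO2 and between SCO2 and CPT1C. A test of the difference between batches called CPT1C, lower in batch 1 than in batch 2 by -1.90 on the log2 scale (SE 0.203, interval -2.33 to -1.47, edgeR adjusted p 0.000299), where 0.106% of 29195 genes passed in either direction. SESN1 was 0.58 higher in batch 1 (adjusted p 0.45), and passed with the replicate number as a block (adjusted p 0.0167). The difference was positive, higher in batch 1, for 8 of the 10 and negative for 2. Its unadjusted edgeR p was under 0.05 for 7 of the 10, and for 1651 of all 29195 genes. Genes without a call are thus not shown to respond alike in the batches. That CPT1C alone was called among the 10 depends on the libraries of batch 1 that are used. With the t1 libraries alone the difference was called for CPT1C (-1.36, edgeR adjusted p 0.0176) and for GPX1, higher in batch 1 (1.36, adjusted p 0.00234), and 1.66% of all genes tested passed in either direction. The t2 libraries alone gave a call for 6 of the 10, where 20.3% of all genes passed. These were higher in batch 1 for TIGAR (0.54, adjusted p 0.0227), SESN1 (1.00, adjusted p 0.000666) and SPATA18 (0.61, adjusted p 0.0429), and lower for SCO2 (-0.81, adjusted p 0.00611), GPX1 (-0.81, adjusted p 0.00491) and CPT1C (-2.18, adjusted p 1.79e-05). Batch 1 and batch 2 differ in what the labels say of vehicle and timing and in their libraries, and these cannot be told apart.

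Leaving out single samples ended some of the calls. In vehicle-treated cells TP53I3 lost its call without vehicle replicate 3 (edgeR adjusted p 0.164) or 4 (0.0852) and without IR replicate 3 (0.117) or 4 (0.0525). GPX1 lost it without vehicle replicate 3 (edgeR adjusted p 0.285) and IR replicate 3 (0.207) or 4 (0.0665), and PANK1 without vehicle replicate 3 (0.102) or 4 (0.0693) and IR replicate 3 (0.108). CPT1C lost it without vehicle replicate 3 (edgeR adjusted p 0.166) or 4 (0.0744) and without IR replicate 4 (0.216), where its log2 fold change went to 0.63, and GLS2 without vehicle replicate 3 (0.0769) and IR replicate 4 (0.0695). Under enzalutamide GLS2 lost it without the irradiated replicate 4 (edgeR adjusted p 0.264) or unirradiated replicate 3 (0.0933), GPX1 without irradiated replicate 3 (0.146) or 4 (0.178) or unirradiated replicate 3 (0.0715), and TP53I3 without irradiated replicate 3 (0.0507). The direction held each time. FDXR, SPATA18, TIGAR and SESN1 passed in both comparisons of batch 2 whichever of the 8 samples was left out.

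**Figure D3:**
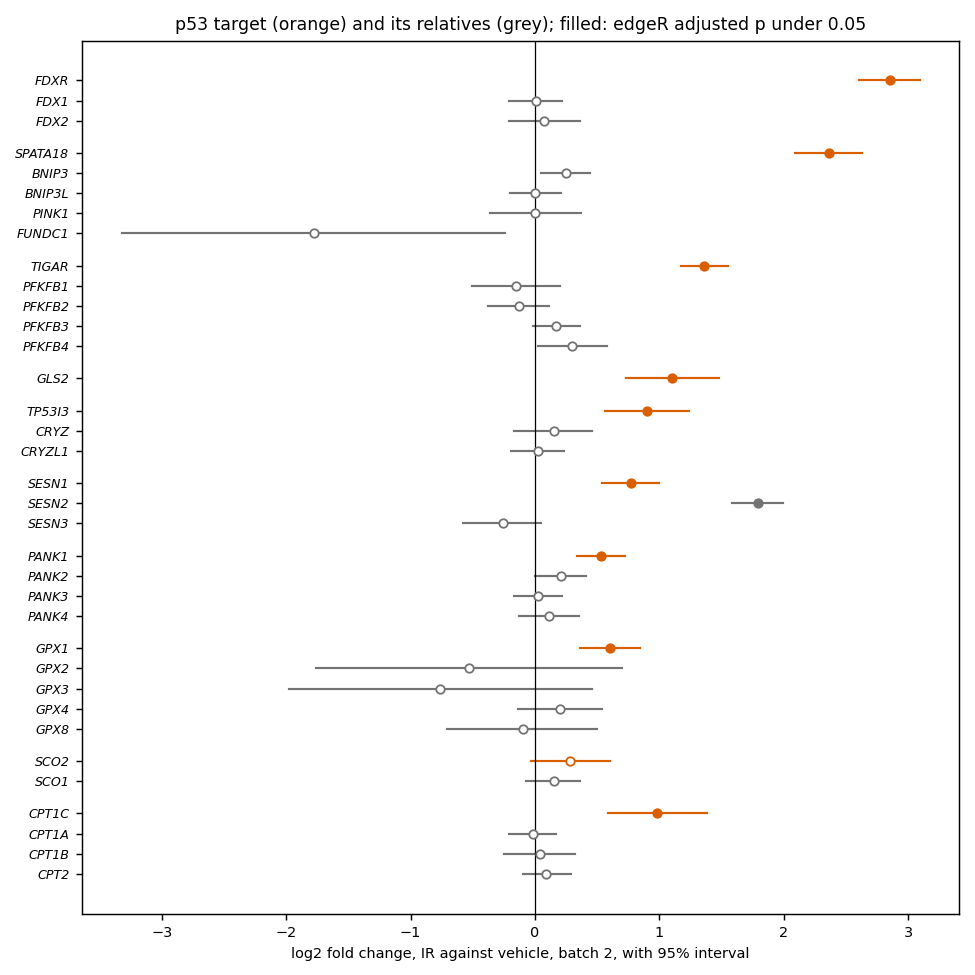
Log2 fold change after IR in vehicle cells (x axis, 95% intervals) for each of the 10 genes in orange and its family or partner genes in grey, filled where the edgeR adjusted p is under 0.05. Among the relatives SESN2 is filled, at 1.79, and the others drawn are open, with FUNDC1, a gene of few reads, lowest at -1.78.

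The relatives of the 10 genes mostly did not respond past the threshold. Of 27 paralogs and partner genes listed, 26 were tested in vehicle cells and 1 rose, SESN2, with a median of 0.03. In batch 1, 2 of 25 rose, SESN2 and BNIP3, with a median of 0. The lowest value in vehicle cells was that of FUNDC1, a mitophagy receptor, at -1.78 (SE 0.713, edgeR adjusted p 0.375), which did not pass. It rests on few reads, with a mean of 0.903 CPM in vehicle and 0.261 CPM after IR. Of 19 other metabolic genes described as p53 targets, 5 rose in vehicle cells (median 0.26), the largest being SESN2, which is also in the list of relatives, and the ceramidase gene ACER2 (1.45, SE 0.0959, adjusted p 2.02e-06). The core pathways of energy metabolism moved little. Of 75 genes of oxidative phosphorylation 1 rose (median 0.13) and of 17 of the TCA cycle 1 rose (median 0.17), in both lists SDHA, which encodes a subunit of succinate dehydrogenase (0.43, SE 0.0833, adjusted p 0.0234). No gene of any of these pathway lists fell in vehicle cells. These lists and the 10 genes were drawn up with earlier results of the same samples known, so their counts are descriptions.

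Enzalutamide changed none of the 10 genes by the test. Averaged over IR, 18 of 28651 genes (0.0628%) passed, all lower (272 in either direction with the replicate number as a block), and none of the 10 was among them under either fit. The log2 differences of the 10 ran from -0.21 for CPT1C to 0.06 for FDXR, with SE between 0.0565 and 0.151, a lowest adjusted p of 0.881 and none with an unadjusted p under 0.05. All 10 of the 95% intervals lay within a 1.5-fold change in either direction. Without IR, 3 genes of all tested passed (0.0105%, 55 with the block, 13 with DESeq2 and 734 at an unadjusted p under 0.05), none of them among the 10. With IR, 3 passed as well (0.0105%, 55 with the block, 7 with DESeq2 and 859 at an unadjusted p under 0.05), again none of the 10. CPT1C had the largest difference there, at -0.52 (interval -0.92 to -0.13, unadjusted p 0.0135, edgeR adjusted p 1), from 43.2 and 67.0 CPM in vehicle with IR to 39.7 and 37.0 CPM in enzalutamide with IR.

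By sample, enzalutamide lay below vehicle without overlap for TP53I3, and the other 9 genes overlapped, where 12.3% of all genes tested had both samples below both controls. After IR, both enzalutamide samples lay below both vehicle samples for SESN1, PANK1, SPATA18 and CPT1C, the other 6 genes overlapped and none lay above, where 15.5% of all genes lay below. None of these differences passed the test.

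The difference between the responses to IR with enzalutamide and with vehicle was tested directly as an interaction. No gene passed (0%, edgeR, with 343 at an unadjusted p under 0.05, 1 passing with the replicate number as a block and 0 with DESeq2). For 7 of the 10 genes the interval of this difference lay within 1.5-fold, among them FDXR (0.04), TIGAR (-0.04) and SPATA18 (-0.18). For GLS2, TP53I3 and CPT1C it reached further. CPT1C was at -0.64 (SE 0.261, interval -1.20 to -0.07, unadjusted p 0.0298, edgeR adjusted p 1), so a smaller rise of CPT1C under enzalutamide was not shown after adjustment. The lost call of PANK1 under enzalutamide is not a difference by this test either (-0.14, adjusted p 1).

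**Figure D4:**
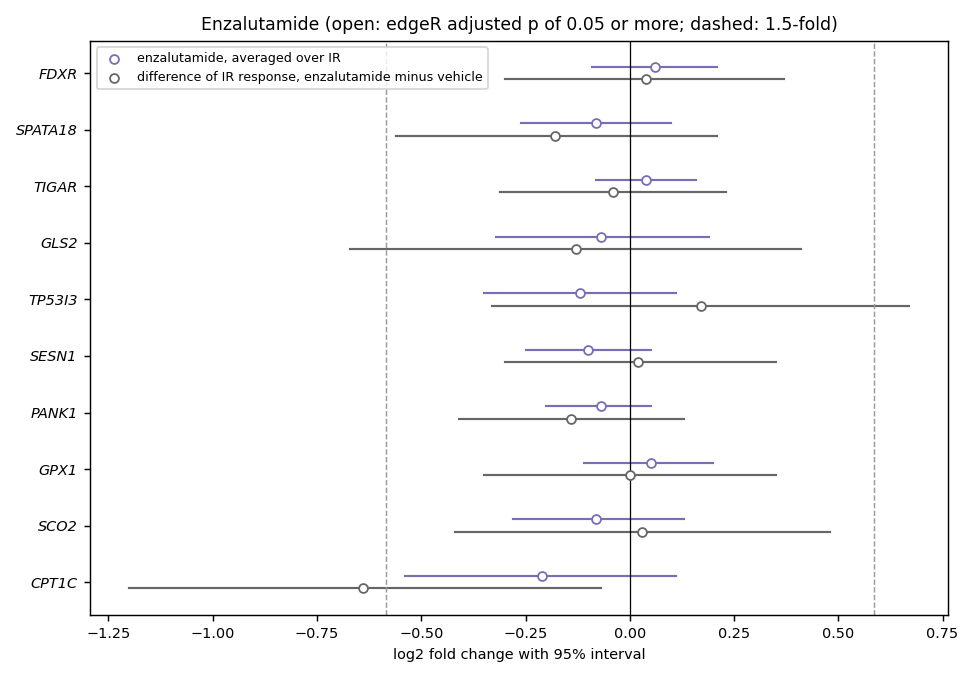
Log2 difference with enzalutamide averaged over IR, and log2 difference of the IR response between enzalutamide and vehicle (x axis, 95% intervals), for each gene, with 1.5-fold marked by dashed lines. No point passed the test, the averaged differences lie between -0.21 and 0.06, and the interval of CPT1C is the only one of the responses that does not reach 0.

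In batch 1 the libraries t1 and t2 gave different responses to IR for some of the genes. GPX1 was at 35.5 and 29.5 CPM in the mock t1 libraries (replicates 1 and 2) and 120 and 132 CPM in the irradiated ones, but at 58.9 and 68.6 CPM in the mock t2 libraries and 62.3 and 48.8 CPM in the irradiated ones. In t1 the groups stood far apart, and in t2 they overlapped. The log2 fold change was 1.99 (edgeR adjusted p 1.17e-07) in t1, -0.21 (adjusted p 0.21) in t2, and the difference of -2.20 passed (SE 0.233, adjusted p 7.94e-06). The rise of GPX1 in batch 1 therefore rests on the t1 libraries. In t1, 9.75% of 23134 genes tested were higher after IR, and in t2, 23% of 21930 were higher and 21.7% lower. The difference between t2 and t1 passed for 40.9% of 23335 genes in either direction, and for 5 of the 10. Such a difference is therefore not particular to these genes.

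SCO2 was at 33.1 and 25.2 CPM in mock t1 and 45.8 and 43.5 CPM in irradiated t1, and at 39.8 and 41.6 CPM in mock t2 and 26.9 and 28.8 CPM in irradiated t2. It thus rose in t1 (0.66, edgeR adjusted p 0.0107) and fell in t2 (-0.53, adjusted p 0.00333). The difference was -1.20 (SE 0.217, adjusted p 0.000474), and the sum of both did not pass. TYMP, which overlaps SCO2, did the same (0.73 in t1, -0.47 in t2). Both SCO2 values lie within the quartiles of all tested genes with a span under 3 kb. Those genes had a median of 0.32 in t1 (quartiles -0.21 and 0.69) and -0.63 in t2 (quartiles -1.04 and 0.17). CPT1C was at 60.0 and 67.2 CPM in mock t1 against 58.7 and 39.7 CPM after IR, and at 146 and 178 CPM in mock t2 against 60.6 and 77.9 CPM. Its fall passed in t2 (-1.21, adjusted p 2.66e-05) and not in t1 (-0.35, adjusted p 0.168), and the high mock value came from the t2 libraries, in which mock cells had 1.36 more on the log2 scale than in t1 (adjusted p 0.000451). In no library set of batch 1 was CPT1C higher after IR by the test.

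FDXR rose in both sets, by 3.60 in t1, from 17.3 and 10.7 CPM to 154 and 171 CPM, and by 2.64 in t2, from 21.9 and 22.2 CPM to 144 and 130 CPM. The difference of -0.95 passed (SE 0.259, edgeR adjusted p 0.00778). SESN1 went the other way, with 1.01 in t1, from 93.7 and 99.5 CPM to 201 and 182 CPM, and 1.77 in t2, from 82.0 and 70.8 CPM to 246 and 275 CPM (difference 0.76, SE 0.222, adjusted p 0.0122). TIGAR (1.74 and 1.89), PANK1 (0.89 and 0.90), SPATA18 (3.14 and 2.96), GLS2 (1.65 and 1.18) and TP53I3 (1.88 and 1.26) rose in both sets, and their differences did not pass (adjusted p from 0.102 to 0.983).

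The difference between t2 and t1 ran with the length of the gene. GPX1, the shortest of the 10 with a RefSeq span of 1178 bases, had the most negative difference, SCO2 followed with 2875 bases, and SESN1, the longest with 110538 bases, had the most positive one. Over the 10 genes Spearman's rho between span and difference was 0.9, and over 18616 genes with a span it was 0.38. Genes are not independent and share the same 8 libraries, so both are descriptions. The median difference over all genes was -0.89 under 3 kb, -0.67 from 3 to 10 kb, -0.23 from 10 to 30 kb, 0.16 from 30 to 100 kb and 0.41 over 100 kb. Mock cells ran the opposite way, with a median of t2 minus t1 from 0.35 under 3 kb to -0.20 over 100 kb and a rho of -0.30 over 18616 genes and -0.65 over the 10. In batch 2 rho between span and the IR response in vehicle was -0.18 over 21682 genes and 0.18 over the 10. The part of whatever t1 and t2 stand for, and of gene length, in the values of the 10 genes was not tested.

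**Figure D5:**
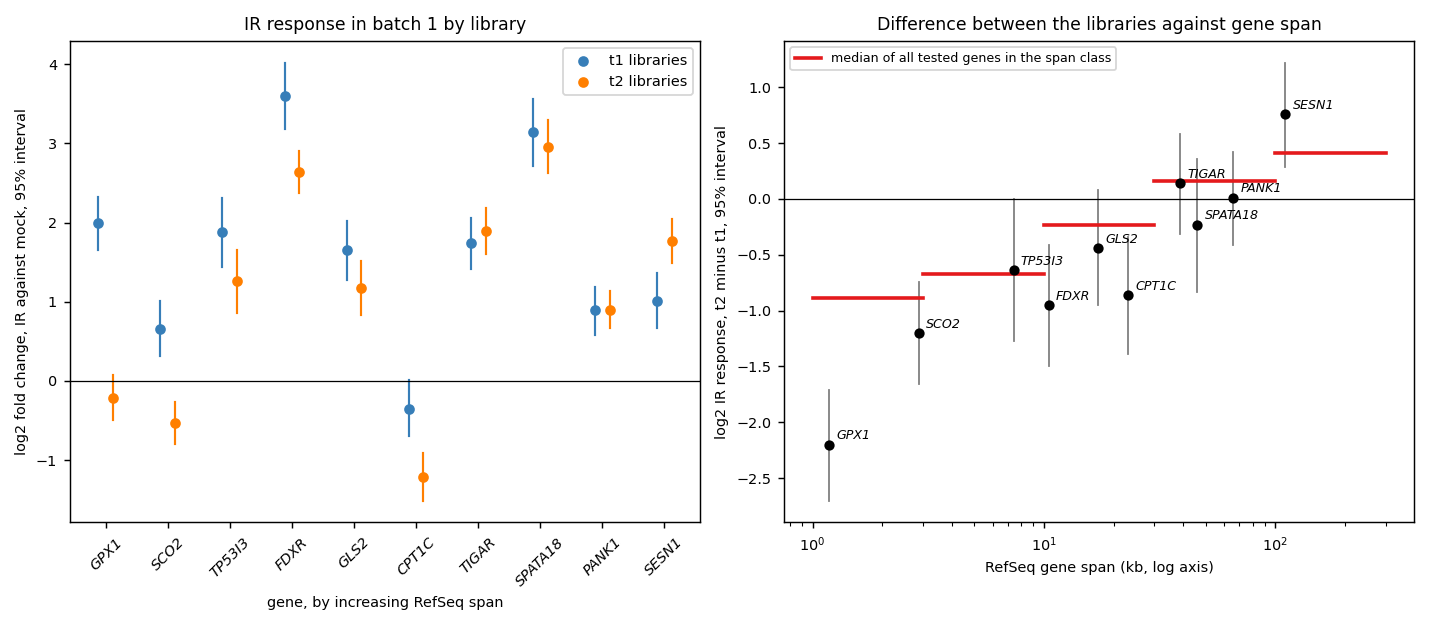
Left, log2 fold change after IR in the t1 and t2 libraries of batch 1 (y axis, 95% intervals) with the genes ordered by span; right, the difference of the responses (y axis) against RefSeq span in kb (log axis), with red lines for the median of all tested genes in each span class. The points run from -2.20 for GPX1 to 0.76 for SESN1, and the red lines from -0.89 to 0.41.

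For FDXR, TIGAR, SPATA18 and SESN1, the 3 genes with the most similar profile were taken by Pearson's r of log2 CPM over the 12 summed samples, centred within batch, among 17426 genes. NINJ1, LIG1 and LRPAP1 were closest to FDXR (r from 0.996 to 0.997), with rises in vehicle cells of 1.82, 0.90 and 0.79, so the likeness is in the pattern and not in its size. TIGAR was closest to ENSG00000285901 (r 1), the identifier with nearly the same count, and then to MIR34AHG (0.997) and CDKN1A (0.995). SPATA18 was closest to MIR34AHG and CDKN1A (both 0.998) and to ENSG00000285901 (0.997). ZNF56P, FBXL5 and MRI1 were closest to SESN1 (r from 0.988 to 0.993). These values are dominated by the contrast of irradiated with control samples, which all of these genes share.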

How the data were processed

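Each batch has a table that the authors deposited, with read counts by Ensembl gene. The values are whole numbers and sum to a different total in each library, so they were taken as raw counts. Per the submitters' processing notes, cutadapt 1.8.1, Bowtie2 2.4.4, SAMtools 1.9 and the build hg38 were used. The counting tool, the annotation release, the use of strand and the treatment of duplicate reads are not given in the sources used here. Of 60605 identifiers 60463 matched a table of gene names. Coordinates, spans and promoters are from RefSeq on GRCh38.p14.

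Counts were tested with edgeR 4.0.16 in R 4.3.3 (filterByExpr with a minimum count of 10, TMM factors, glmQLFit, glmQLFTest, two-sided, Benjamini-Hochberg adjustment over all genes tested, threshold 0.05). The 8 samples of batch 2 entered 1 model with IR, enzalutamide and their interaction, and the averaged effect of enzalutamide came from a model without the interaction. In batch 1 libraries t1 and t2 were summed per replicate. Both batches were fitted with batch as a term, and their difference as an interaction, without the enzalutamide samples. The model of t1 and t2 was added after the data were seen. The SE of a log2 fold change is its size divided by the square root of F, and the 95% intervals use the t distribution. DESeq2 1.42.0 was an alternative.

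Replicate numbers shared between the groups in the labels are the source of the pairing in batch 2. The replicate differences of 2 groups correlated across genes at 0.135 to 0.301 in all 6 pairs of groups, so the blocked fit is given where it changes a call. The steps were tested on simulated counts with 200 genes changed by 2-fold. For IR in vehicle cells 92% of them were recovered (28131 genes, 4.66% of calls false), and for IR in batch 1 91.5% (25364 genes, 4.19%). The changed genes all had a mean of at least 50 counts, so the recovered shares do not cover genes with fewer. The simulated samples were independent, with no pairing by replicate number, and in this they differ from the data.

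The 10 genes and the gene lists were chosen with earlier results of these data known. Named besides the 10 are their neighbouring and overlapping genes, their relatives, and at most 2 rises and 2 falls per pathway list. Also named are the 3 most similar genes for 4 of the 10, the checks of the labels and the cell type markers.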

Additional observations from a re-analysis of the deposited data

Results flagged for a closer look

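The response of CPT1C to IR differed between the batches by the test of the difference itself, at -1.90 on the log2 scale for batch 1 minus batch 2 (edgeR adjusted p 0.000299, and 2.95e-06 with the replicate number as a block). Within batch 1 the response to IR differed between the t2 and t1 libraries for 5 of the 10 genes in the model added after the data were seen. The log2 differences, t2 minus t1, were -2.20 for GPX1, -1.20 for SCO2, -0.95 for FDXR, -0.86 for CPT1C and 0.76 for SESN1. Such a difference passed for 40.9% of all genes tested, so it is not particular to the 10.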

How the results depend on the processing

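Calls and directions of the 10 genes were the same under RLE factors, total counts, no filter on low counts and DESeq2, except that PANK1 passed under enzalutamide without the filter (0.40, edgeR adjusted p 0.0366) and with DESeq2 (0.40, adjusted p 0.0437), and that CPT1C over both batches, at 0 and not called, changed sign with total counts (0.00). DESeq2 gave no adjusted p for TP53I3 for enzalutamide averaged over IR. Scaling moved the median of all genes by less than 0.1.

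Counts of genes called moved more. Without the filter they were 624 for IR in vehicle, 556 for IR under enzalutamide, 74, 64 and 230 for enzalutamide without IR, with IR and averaged, 32 for the interaction, 1157 for IR in batch 1 and 119 for the difference between batches, against 314, 263, 3, 3, 18, 0, 731 and 31 in the main fits. DESeq2 called 13, 7 and 54 genes for enzalutamide without IR, with IR and averaged. The 4 samples compared gave 7 for enzalutamide with IR when fitted alone.

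With the replicate number as a block the counts were 1315 for IR in vehicle, 951 for IR under enzalutamide, 55, 55 and 272 for enzalutamide without IR, with IR and averaged, 1 for the interaction, 2332 for IR in batch 1, 1954 over both batches (1182 without the block) and 96 for the difference between batches. In batch 1 the numbers gave a single pair of groups, so there the block is a description. Besides PANK1 under enzalutamide and SESN1 in the difference between batches, the block changed no call of the 10 genes. It turned the sign of CPT1C over both batches (-0.02) and of the GPX1 interaction (0.00), neither of them called.

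With t1 alone 3995 genes were called for IR in batch 1 and 452 for the difference between batches, in which SCO2 changed sign (0.35). SCO2 then passed in batch 1 (0.66, edgeR adjusted p 0.0107), CPT1C no longer did (-0.35, adjusted p 0.168), and GPX1 joined CPT1C in the difference between batches (1.36, adjusted p 0.00234). With t2 alone these were 9800 and 5646, and 657 over both batches. The sign then turned for SCO2 (-0.53) and GPX1 (-0.21) in batch 1, for SCO2 (-0.11) and CPT1C (-0.12) over both batches, and for FDXR (-0.20) and GPX1 (-0.81) in the difference between batches. In that difference 5 genes besides CPT1C were then called, TIGAR (0.54), SESN1 (1.00) and SPATA18 (0.61) higher in batch 1 and SCO2 (-0.81) and GPX1 lower. GPX1 over both batches lost its call with t2 alone (0.21, edgeR adjusted p 0.416). The cause was not tested.

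Leaving out each sample in turn gave 161 to 511 genes for IR in vehicle (161 without IR replicate 4, 162 without vehicle replicate 3 and 209 without vehicle replicate 4), 139 to 434 for IR under enzalutamide, 2 to 10, 1 to 6 and 7 to 36 for enzalutamide without IR, with IR and averaged, 0 to 4 for the interaction, 587 to 1509 for IR in batch 1 (1509 without mock replicate 2), 897 to 1208 over both batches and 21 to 45 for the difference between batches. Signs of values near 0, none of them called, turned for SCO2 in batch 1 (-0.02 to 0.23), CPT1C over both batches (-0.26 to 0.28), GLS2 for enzalutamide averaged (-0.17 to 0.01), and for the interaction in FDXR (-0.10 to 0.16), TIGAR (-0.12 to 0.04), SESN1 (-0.11 to 0.15), SCO2 (-0.13 to 0.22), GLS2 (-0.38 to 0.13) and GPX1 (-0.09 to 0.09). The lowest counts in a summed sample were 54 reads for SPATA18 and 55 for TP53I3, and in a single t1 or t2 library 17 and 33. The SE of the response in vehicle cells ran from 0.0866 for PANK1 to 0.183 for CPT1C.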
